A study of Homo sapiens with 15 samples.

Results

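The genes of homologous recombination and of the Fanconi pathway were 36 of the 23368 genes measured by RNA-seq in 15 libraries of breast cancer cells. They were taken by name from a list, from BRCA1 to TOPBP1, and all 36 were found. All 36 also passed the filter used here, which asked every clone for a mean of 10 or more normalized counts and which 12644 genes passed. The libraries came from 3 clones, each grown from a single sorted cell, that carried FLAG-tagged RBM47 under a doxycycline-inducible promoter in a retroviral vector. RBM47 is an RNA-binding protein whose loss was studied in metastatic breast cancer. WT6 and WT10 carried wild type RBM47, and MUT3 carried the frameshift mutant I281fs, which truncates the protein. The study found little of this mutant protein although its mRNA was abundant, and took it to be unstable and inactive. Each clone was left untreated or given 1, 2.5, 5 or 25 ng/ml doxycycline, with 1 library at each dose, and the untreated cells carried the vector too. The duration of treatment is not given in the sources used here. The GEO labels name MDA231, a triple negative breast cancer line, for every clone, whereas the study's methods derive WT10 and MUT3 from its brain metastatic derivative BrM2 and WT6 from CN34-BrM2, a derivative of another line. With 1 clone of each kind, the effects of the transgene, the parental line and the clone cannot be told apart in a comparison of levels between clones.

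Homologous recombination repairs broken DNA by copying the sister chromatid. The ends are cut back to single strands, BRCA1 and its partners bring BRCA2 to them, and the strand invades an intact copy. The Fanconi pathway clears crosslinks between the strands: a core complex attaches ubiquitin to the pair FANCD2 and FANCI, which hands the lesion to nucleases and recombination. Most of these genes are used in S and G2 phase, and cells that divide more usually hold more of many of their mRNAs.

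The depth was 14955172 to 44771871 reads on genes per library, with a median of 18152381. Every one of the 36 genes had at least 45 reads in every library, and 3 reads corresponded to a normalized count of 1.19 to 4.09. RBM47 itself, the induced gene, stood at normalized counts of 257.54, 3136.5, 8094.3, 3966.1 and 10425 in WT6 cells at 0, 1, 2.5, 5 and 25 ng/ml, so that the library at 5 ng/ml held less than that at 2.5 ng/ml. In WT10 cells it rose through 167.68, 826.53, 2822.5, 8134.3 and 19877, and in MUT3 cells through 73.782, 92.118, 336.06, 949.15 and 22084. The WT6 libraries at 5 and 25 ng/ml stood apart: the median log2 change from untreated was 0.599 and 0.579 for the fifth of all genes that had the shortest transcripts and -0.414 and -0.455 for the fifth that had the longest, while in the other treated libraries both medians lay between -0.081 and 0.064. Transcript length was that of the transcript marked as canonical in the annotation, or of the longest where none was marked. Its median was 4607 bases for the repair genes and 3301 bases for all genes tested. WT6 calls that were lost once the trends with length and GC content were removed are named beside their values. VIM, a mesenchymal marker, CD44 and EGFR had lowest values of 50755, 7100.3 and 1483.6 over the libraries. The simple epithelial keratins KRT8 and KRT18 were present in every library too, at no less than 8158.6 and 8662.6, with EPCAM at 136.31 to 456.42, while CDH1 did not exceed 19.931 and the receptors ESR1 and PGR did not exceed 11.968 and 23.832. ERBB2 lay between 1017.7 and 1583.6. Of 10 markers of other cell types, CD3E and MS4A1 were at 0 in every library and the summed value was 442.79 to 622.48 in WT6, 556.51 to 680.77 in WT10 and 468.36 to 557.32 in MUT3 cells, mostly from COL1A1 and MYH11.

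In both wild type clones many of the repair genes fell with dose, and in MUT3 cells none was called. The slope of log2(normalized count + 1) on log2(dose + 1) was fitted for each clone with limma, and a gene was called at an adjusted p under 0.05 over all 12644 genes. In WT6 cells 27 of the 36 genes fell, where 28.3% of all genes tested fell, and 3 rose, where 29.2% of all genes rose. Of the 23 repair genes with transcripts longer than the 3301 base median of all genes tested, 22 fell there. Of the 13 others 5 fell. The share of all long genes that fell was not counted here. In WT10 cells 11 fell (9.83% of all genes) and 0 rose (10.2% of all genes). In MUT3 cells 0 of 36 were called (0% of all genes), 0 had an unadjusted p under 0.05 and edgeR and DESeq2 also called 0, and limma gave 295 of all genes tested an unadjusted p under 0.05. With MUT3 fitted alone limma called 0 of 36 (1.39% of all genes). At an unadjusted p under 0.05, 1 then fell and 1 rose (4.07% and 6.58% of all genes). With length and GC trends removed 2 fell and 1 rose at that level (2.25% and 3.07% of all genes), and 0 were called. The median slope over the 36 genes was -0.168 in WT6, -0.063 in WT10 and -0.008 in MUT3 cells, beside medians of 0.005, -0.003 and 0.003 over all genes tested. All 11 genes that fell in WT10 cells fell in WT6 cells too (7.34% of all genes fell in both): BRIP1, FANCD2, BLM, RAD54L, FANCA, RAD51D, EXO1, FANCI, ATRIP, FANCG and FANCE. PALB2, RAD51C, XRCC3, FANCL, UBE2T and CHEK2 were called in neither. With log2 RBM47 in place of dose limma called 0 of 36 in WT6 and 0 in WT10 cells, where 14 and 7 fell at an unadjusted p under 0.05 (12.2% and 8.66% of all genes) and limma called 0 and 13 of all genes tested as falling. FANCA and FANCG also stand in the study's own set of falling genes, which was chosen on these libraries and is not independent evidence.

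**Figure D1:**
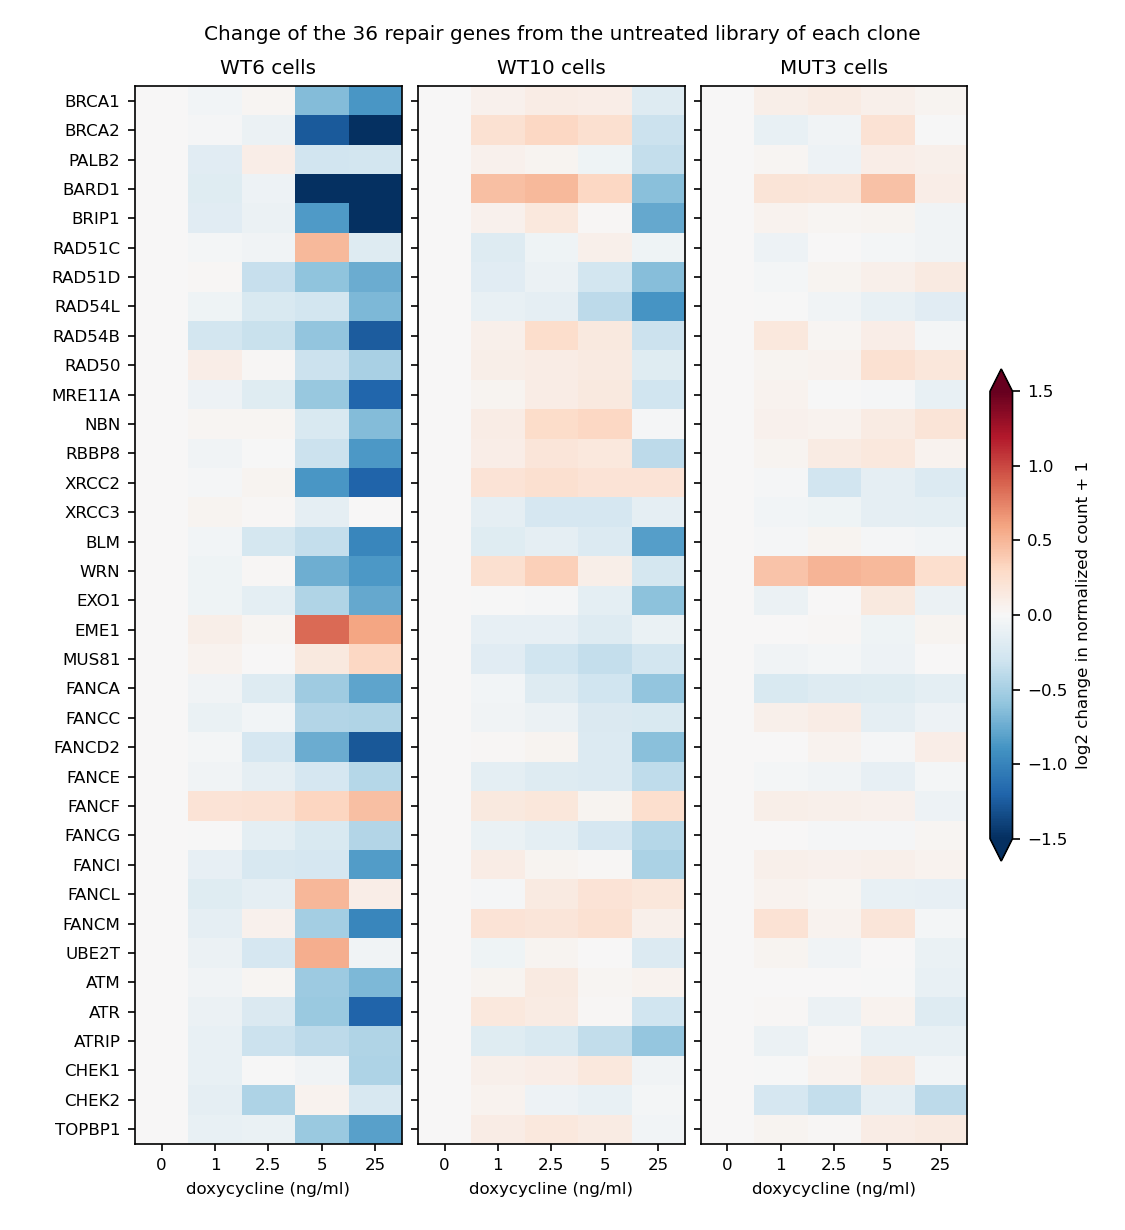
Log2 change of the normalized count + 1 of each of the 36 repair genes (rows) from the untreated library of the same clone, at each doxycycline dose in ng/ml (columns), 1 library per column. Blue is lower and red is higher than untreated, and colours end at 1.5. The WT6 columns at 5 and 25 ng/ml are mostly blue, the WT10 column at 25 ng/ml is mostly pale blue, and the MUT3 columns are mostly near white.

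The fall was not spread evenly over the doses. In WT6 cells the median log2 change of the 36 genes from untreated was -0.058 at 1, -0.084 at 2.5, -0.374 at 5 and -0.708 at 25 ng/ml. The WT6 values at 5 and 25 ng/ml lay below all of those at 0, 1 and 2.5 ng/ml for 27 genes (33.1% of all genes) and above all of them for 4 (34.1% of all genes), EME1, MUS81, FANCF and FANCL. Without those 2 libraries, an alternative added after the data were seen, limma called 0 of 36 in WT6 cells, where 0.411% of all genes were called falling and 1.03% rising. At an unadjusted p under 0.05, 4 had a negative slope (7.94% of all genes), and the median slope was -0.050, beside -0.010 over all genes tested. With the length and GC trends removed, 24 genes fell in WT6 cells (31.5% of all genes), 21 of them shared with the 27, and the median slope was -0.111. XRCC3, UBE2T and CHEK2 joined the falling genes there, and RAD51D, RAD50, WRN, FANCC, ATM and CHEK1 left them. Leaving out only the WT6 library at 25 ng/ml left 16 falling genes (17.2% of all genes) and 1 rising gene (19.4% of all genes), and leaving out only the untreated one left 1 rising gene (24.5% of all genes). In WT10 cells the median change was 0.044, 0.076 and 0.020 at 1, 2.5 and 5 ng/ml and -0.285 at 25 ng/ml. The value at 25 ng/ml was the lowest of the 5 for 26 genes in WT10 cells (36.6% of all genes) and for 16 in MUT3 cells (21.7% of all genes). Without the WT10 library at 25 ng/ml limma called 0 of 36 in WT10 cells, where 0% of all genes were called falling and 0.0475% rising. At an unadjusted p under 0.05, 7 had a negative and 1 a positive slope (8.53% and 6.69% of all genes), and the median slope turned to 0.017. With the trends removed 18 fell in WT10 cells (20.6% of all genes), among them all 11, joined by PALB2, RAD54B, MRE11A, RBBP8, MUS81, UBE2T and ATR. The highest value of a gene was a median of 1.71 times its lowest over the 5 WT6 libraries, 1.32 times over the WT10 libraries and 1.12 times over the MUT3 libraries.

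**Figure D2:**
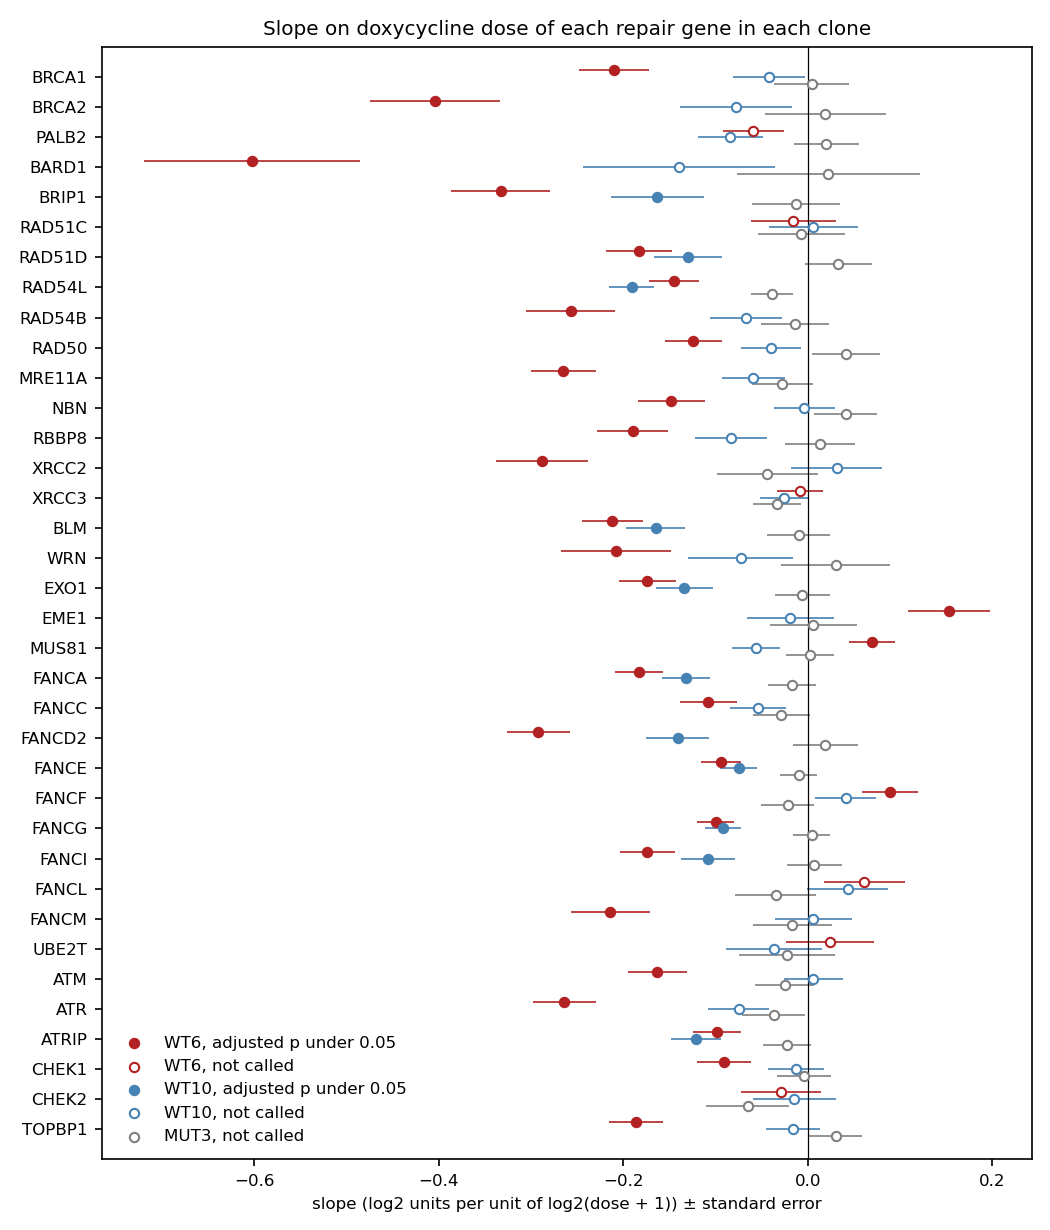
Slope of each repair gene on log2(dose + 1), in log2 units, with its standard error, for WT6 (red), WT10 (blue) and MUT3 (grey) cells. Filled points have an adjusted p under 0.05. WT6 points reach -0.602 at BARD1, the filled WT10 points lie between -0.191 and -0.075, and no MUT3 point is filled.

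Many genes of S phase are driven by E2F factors, and the RefSeq promoters of the repair genes (GRCh38.p14, 250 bases before to 50 after the start) were searched on both strands for letters that E2F factors bind: TTTGGCGC, TTTCCCGC, TTTCGCGC and TTTGCCGC. Promoters were held for 32 of the 36 genes. At least 1 match stood in 6 of the 32 (18.8%), in 3.99% of all 27305 genes with a promoter and in 20 of 34 genes of a list of DNA replication and the G1/S transition (58.8%). The letters TTTGAA of the cell cycle element CHR stood in 12.5% of the 32, in 18.2% of all genes and in 17 of 24 genes of a list of G2/M and mitosis (70.8%). CCAAT, which NF-Y binds, stood in 50% of the 32 and in 39.7% of all genes. FANCA, FANCD2 and EXO1 fell in both wild type clones, and FANCC, TOPBP1 and XRCC2 in WT6 cells only by the test. The matches of these 6 genes, the ones with any match, are printed on the strand of the gene, with the matching letters in capitals within 30 bases of promoter. A match is a description of these letters and not a measured binding site.
FANCD2, chr3:10026424-10026453, plus strand: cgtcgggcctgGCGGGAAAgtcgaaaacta
FANCA, chr16:89816801-89816830, minus strand: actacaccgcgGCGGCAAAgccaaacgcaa
EXO1, chr1:241848197-241848226, plus strand: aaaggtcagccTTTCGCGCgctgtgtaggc
TOPBP1, chr3:133661930-133661959, minus strand: ccgcgcggttgGCGCGAAAgtcggttcccg
FANCC, chr9:95317737-95317766, minus strand: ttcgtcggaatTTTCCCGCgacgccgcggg
FANCC, chr9:95317863-95317892, minus strand: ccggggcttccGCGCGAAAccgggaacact
XRCC2, chr7:152676102-152676131, minus strand: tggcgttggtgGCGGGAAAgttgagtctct
The FANCD2 and TOPBP1 matches began 2 and 7 bases before the annotated start, the EXO1 and XRCC2 matches 5 and 22 bases into the transcript, and the FANCA match 172 bases before the start.

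The BRCA1 complex held the steepest slopes in WT6 cells. BRCA1, a ubiquitin ligase that starts recombination at a break, had normalized counts of 1389.6, 1353, 1416, 881.5 and 757 in WT6 cells at 0, 1, 2.5, 5 and 25 ng/ml, 829, 867, 894, 886.5 and 727 in WT10 cells and 561.5, 595, 613, 589.9 and 579 in MUT3 cells. The WT6 values dropped between 2.5 and 5 ng/ml and the WT10 values were lowest at 25 ng/ml, while the MUT3 values stayed below every WT10 value. Its slope was -0.21 ± 0.038 (SE) in WT6 cells (adjusted p = 0.000399) and -0.042 ± 0.039 in WT10 cells (adjusted p = 0.493). BRCA2, which acts on the single-stranded DNA at a break, had 720.0, 711, 679, 299.7 and 224 in WT6 cells, 686, 801, 849, 809 and 548 in WT10 cells and 424, 392, 407, 492 and 423 in MUT3 cells. Its WT6 values at 5 and 25 ng/ml were under every other BRCA2 value of the series, and in WT10 cells only the value at 25 ng/ml was below the untreated value. Its slope was -0.40 ± 0.070 in WT6 cells (adjusted p = 0.000274) and -0.078 ± 0.061 in WT10 cells (adjusted p = 0.405). BARD1, the partner of BRCA1 in the ligase, went in WT6 cells from 356 untreated to 56.1 at the top dose, to 0.157 of the untreated value, with a slope of -0.60 ± 0.12 (adjusted p = 0.000651). Its WT10 slope of -0.14 ± 0.10 did not pass the test (adjusted p = 0.374), with the values at 1, 2.5 and 5 ng/ml above and the value at 25 ng/ml below untreated.

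BRIP1, a helicase that binds BRCA1, fell in both wild type clones. It had 746, 665, 704, 414 and 263 in WT6 cells, 817, 854, 912, 828 and 479.8 in WT10 cells and 822, 852, 841, 844 and 794 in MUT3 cells. The drop came at 5 ng/ml in WT6 and at 25 ng/ml in WT10 cells, and the MUT3 values overlapped those of WT10 cells up to 5 ng/ml. The slope was -0.33 ± 0.054 in WT6 cells (adjusted p = 0.000173) and -0.16 ± 0.050 in WT10 cells (adjusted p = 0.0306). PALB2, the bridge between BRCA1 and BRCA2, had slopes of -0.059 ± 0.033 in WT6 and -0.084 ± 0.035 in WT10 cells and passed the test in neither (adjusted p = 0.14 and 0.104).

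All 5 genes of end resection fell in WT6 cells (28.3% of all genes). EXO1 alone passed the test in WT10 cells (9.83% of all genes fell). EXO1, an exonuclease that lengthens the single-stranded tail, had 1613, 1545, 1453, 1178.5 and 949 in WT6 cells, 1361, 1350.2, 1348, 1234 and 887 in WT10 cells and 1621, 1522, 1621, 1787 and 1519 in MUT3 cells. The WT6 and WT10 values were lowest at 25 ng/ml and every MUT3 value lay above every WT10 value. Its slopes were -0.17 ± 0.031 and -0.13 ± 0.031 in WT6 and WT10 cells (adjusted p = 0.000336 and 0.00794). MRE11A, RAD50 and NBN form the complex that finds and first cuts broken ends, and RBBP8 encodes its cofactor CtIP. In WT6 cells MRE11A had a slope of -0.27 ± 0.035 (adjusted p = 3.84e-05). The WT6 slopes of RAD50, NBN and RBBP8 were -0.12 ± 0.031, -0.15 ± 0.036 and -0.19 ± 0.038, with adjusted p-values of 0.0034, 0.00294 and 0.000764. RAD50 lost its call when length and GC trends were removed, with a slope of -0.016 (adjusted p = 0.408). In WT10 cells the slopes of these 4 genes lay between -0.083 and -0.004 and none passed the test.

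Of RAD51C, RAD51D, XRCC2, XRCC3 and the RAD54 translocases, 4 of 6 fell in WT6 (28.3% of all genes) and 2 in WT10 cells (9.83%). RAD54L, a translocase that helps the strand invade its template, had 625, 599, 534, 515 and 392 in WT6 cells, 1492, 1380.1, 1358, 1133 and 809 in WT10 cells and 1659.5, 1651.5, 1604, 1533 and 1479 in MUT3 cells. The 5 values stepped down with each dose in all 3 clones, least in MUT3 cells, and the highest WT6 value was below every value of the other clones. The slope was -0.14 ± 0.027 in WT6, -0.19 ± 0.024 in WT10 and -0.039 ± 0.023 in MUT3 cells, with adjusted p-values of 0.00054, 0.000152 and 1.0. RAD51D, which acts in strand invasion, had 272, 275, 214, 178 and 162 in WT6 cells, 225, 199.6, 211, 186 and 144 in WT10 cells and 179, 175, 184, 188 and 196 in MUT3 cells. The dose of 25 ng/ml gave its lowest value in WT6 and in WT10 cells and its highest in MUT3 cells. Its slopes of -0.18 ± 0.036 in WT6 and -0.13 ± 0.037 in WT10 cells passed the test (adjusted p = 0.000695 and 0.0227). The WT6 call was lost with length and GC trends removed (slope -0.069, adjusted p = 0.0667). RAD54B, a relative of RAD54L, and XRCC2, which works with RAD51D, fell in WT6 cells with slopes of -0.26 ± 0.048 and -0.29 ± 0.050 (adjusted p = 0.000497 and 0.000271). In WT10 cells XRCC2 had a slope of 0.031 ± 0.049 and all 4 treated libraries lay above the untreated one. RAD51C and XRCC3, which form a complex, had slopes between -0.033 and 0.006 in the 3 clones.

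The helicases and the junction nuclease went opposite ways in WT6 cells. BLM, the Bloom helicase that dissolves joined molecules, had 557, 539, 465, 433 and 282 in WT6 cells, 624, 552, 567, 540.0 and 350.2 in WT10 cells and 341, 337, 352, 337 and 331 in MUT3 cells. It fell in both wild type clones, with slopes of -0.21 ± 0.033 and -0.17 ± 0.032 (adjusted p = 0.000116 and 0.00234), and at 25 ng/ml the WT6 value lay below and the WT10 value within the range of the MUT3 values. WRN, the Werner helicase, fell in WT6 cells with a slope of -0.21 ± 0.060 (adjusted p = 0.00836) but not with length and GC trends removed (-0.103, adjusted p = 0.0601). EME1 and MUS81, the 2 subunits of a nuclease that cuts joined molecules, rose in WT6 cells. EME1 went from 1100.3 untreated to 1978 at 5 and 1655.5 at 25 ng/ml, with a slope of 0.15 ± 0.044 (adjusted p = 0.00866). The MUS81 slope of 0.069 ± 0.025 (adjusted p = 0.0285) went to -0.002 with the trends removed (adjusted p = 0.919). In WT10 cells neither passed the test, with slopes of -0.019 ± 0.047 and -0.056 ± 0.026.

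**Figure D3:**
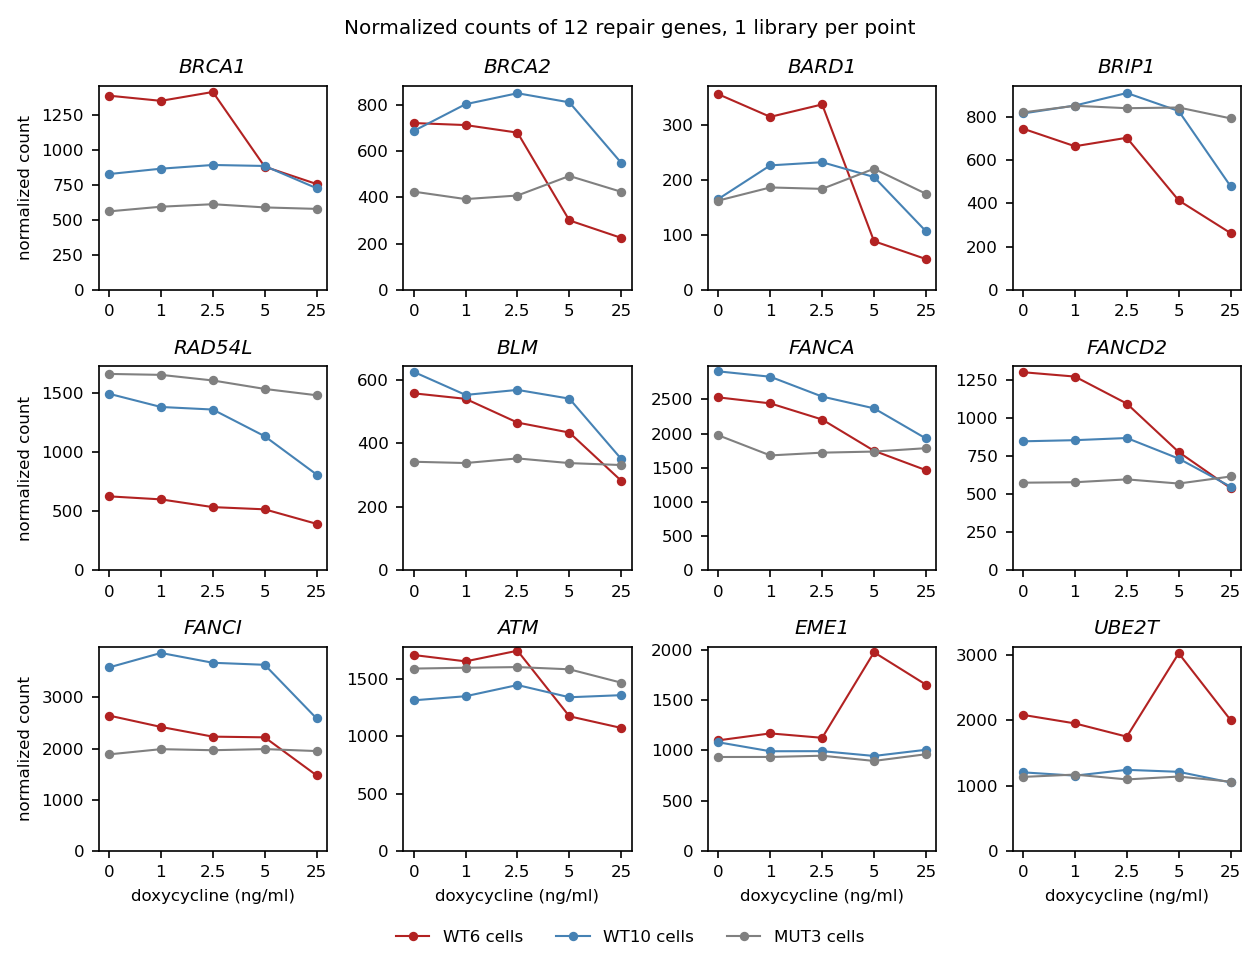
Normalized counts of 12 of the repair genes against doxycycline dose (ng/ml), 1 library per point, in WT6 (red), WT10 (blue) and MUT3 (grey) cells, with each axis starting at 0. FANCD2 descends in both wild type clones and is level in MUT3 cells, BRCA2 and BARD1 drop between 2.5 and 5 ng/ml in WT6 cells, and EME1 and UBE2T peak at 5 ng/ml in WT6 cells.

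In the Fanconi pathway, the ID complex fell in both wild type clones. FANCD2, one of the genes with an E2F match beside its start and the subunit that receives ubiquitin and marks the crosslink, had 1301, 1272, 1095, 777 and 539 in WT6 cells, 847, 854.5, 869, 734 and 549 in WT10 cells and 575, 578, 597, 569.7 and 616 in MUT3 cells. The WT6 values stepped down at each dose, the WT10 values were lower at 5 and 25 ng/ml than at the others, and at 25 ng/ml both wild type clones lay below every MUT3 value. Its slopes were -0.29 ± 0.034 and -0.14 ± 0.034 (adjusted p = 1.4e-05 and 0.0101). FANCI, its partner, had 2646, 2423, 2233, 2219 and 1475 in WT6 cells, 3588, 3871, 3679, 3639 and 2589 in WT10 cells and 1886, 1988, 1967, 1989 and 1951 in MUT3 cells. In WT10 cells only the value at 25 ng/ml was lower than untreated, and every WT10 value lay above every MUT3 value. Its slopes were -0.17 ± 0.030 and -0.11 ± 0.029 (adjusted p = 0.000288 and 0.0179).

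Of the 8 genes of the core complex and its ubiquitin-conjugating enzyme, 5 fell (28.3% of all genes) and 1 rose (29.2%) in WT6 cells. In WT10 cells 3 fell (9.83% of all genes). FANCA, a large scaffold of the complex, had 2529, 2442, 2206, 1748 and 1465 in WT6 cells, 2910.1, 2832, 2541, 2369 and 1928 in WT10 cells and 1975, 1680.3, 1721, 1737 and 1786 in MUT3 cells. Both wild type clones stepped down at every dose, and the MUT3 values were highest untreated and between 1680.3 and 1786 under doxycycline. The slopes were -0.18 ± 0.026 and -0.13 ± 0.026 (adjusted p = 7.21e-05 and 0.00272). FANCG, which binds FANCA, had 2147, 2138, 1933, 1827 and 1583 in WT6 cells, 2263, 2111, 2041.5, 1904 and 1678 in WT10 cells and 1736, 1749, 1715, 1720.0 and 1766 in MUT3 cells. It too stepped down at every dose in both wild type clones and kept within a narrow range in MUT3 cells, with slopes of -0.10 ± 0.020 and -0.092 ± 0.020 (adjusted p = 0.000753 and 0.00504). FANCE, which contacts FANCD2, fell with slopes of -0.094 ± 0.022 in WT6 and -0.075 ± 0.020 in WT10 cells (adjusted p = 0.00227 and 0.0182). FANCC, a core subunit, and FANCM, the helicase that anchors the complex to DNA, fell in WT6 cells with slopes of -0.11 ± 0.031 and -0.21 ± 0.043 (adjusted p = 0.00897 and 0.000756). FANCC lost its call with length and GC trends removed (-0.051, adjusted p = 0.0667). FANCF, an adaptor of the complex, rose in WT6 cells with a slope of 0.089 ± 0.030 (adjusted p = 0.0206). FANCL, the ubiquitin ligase, and UBE2T, its conjugating enzyme, were highest at 5 ng/ml in WT6 cells, at 1004 and 3031 against 708 and 2085.5 untreated, and passed the test in no clone.

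Among the checkpoint genes 5 of 6 fell in WT6 (28.3% of all genes) and 1 in WT10 cells (9.83% of all genes). ATM, the kinase that answers double strand breaks, had 1712, 1656, 1749.5, 1176 and 1074 in WT6 cells, 1315.5, 1351, 1449, 1342 and 1360.5 in WT10 cells and 1593, 1600.4, 1606, 1587 and 1469.8 in MUT3 cells. Only WT6 cells at 5 and 25 ng/ml left the range of the other libraries, and the WT10 values were all under the MUT3 values. The ATM slope was -0.16 ± 0.032 in WT6 cells (adjusted p = 0.000767), -0.039 there with length and GC trends removed (adjusted p = 0.0722), and 0.006 ± 0.032 in WT10 cells (adjusted p = 0.921). ATRIP, which brings the kinase ATR to single-stranded DNA, had 756, 699, 607, 578 and 554 in WT6 cells, 626, 552, 535, 483 and 419.6 in WT10 cells and 529, 499, 534, 489 and 488 in MUT3 cells. Both wild type clones stepped down at every dose, with slopes of -0.099 ± 0.026 and -0.12 ± 0.027 (adjusted p = 0.00459 and 0.00583). ATR itself and TOPBP1, its activator, fell in WT6 cells with slopes of -0.26 ± 0.034 and -0.19 ± 0.029 (adjusted p = 3.17e-05 and 0.000131) and had slopes of -0.075 ± 0.033 and -0.016 ± 0.029 in WT10 cells. CHEK1, the kinase downstream of ATR, had a slope of -0.091 ± 0.029 in WT6 cells (adjusted p = 0.0146), -0.042 with the trends removed (adjusted p = 0.0555). CHEK2, the kinase downstream of ATM, had slopes between -0.065 and -0.015 in the 3 clones and passed the test in none. CHEK2 and FANCD2 have close pseudogene copies in the genome and 16 of the 36 genes overlap a coding gene on the other strand, so reads at those places can be shared or left uncounted.

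The comparison of WT10 with MUT3, which share a parental line, asked whether the slope differed between a clone with wild type and a clone with mutant RBM47, 1 of each. The slope was lower in WT10 cells for 1 of 36 genes (2.97% of all genes) and higher for 0 (2.66% of all genes). RAD54L was that gene, with a difference of -0.15 ± 0.034 (SE; adjusted p = 0.0199). The call was lost without the WT10 library at 25 ng/ml or without the untreated or the 25 ng/ml library of MUT3 cells, and with log2 RBM47 in place of dose. A further 10 genes had a lower slope at an unadjusted p under 0.05, so 11 did in all (12.4% of all genes) and 0 had a higher one (9.93% of all genes), and the median difference over the 36 was -0.056, beside -0.005 over all genes tested. With length and GC trends removed 8 genes had a lower slope in WT10 cells (10.9% of all genes), namely BRIP1, RAD54L, RBBP8, BLM, EXO1, FANCD2, FANCI and UBE2T, and without the WT6 libraries at 5 and 25 ng/ml 10 had (13.5% of all genes). The count became 8 without the WT6 library at 5 ng/ml alone (10.1% of all genes), 3 without that at 2.5 or at 25 ng/ml (4.08% and 4.51%), 4 without untreated WT10 cells (3.39%) and 2 without WT10 cells at 5 ng/ml (2.26%). Without both WT6 libraries at 5 and 25 ng/ml the median difference over the 36 stayed at -0.056. The fit shared 1 residual variance per gene over the 3 clones, so the WT6 libraries also entered the errors of this comparison. With the libraries of the 3 clones matched by dose, an alternative added after the data were seen, 5 genes had a lower slope in WT10 cells (4.4% of all genes): RAD54L, FANCD2, BLM, FANCI and FANCG. In the limma fit of all 15 libraries as deposited, without matching by dose, the other genes that fell in both wild type clones did not pass. DESeq2 on the same libraries called a lower slope for 3 of the 36 (4.45% of all genes), among them FANCD2 and FANCG (adjusted p = 0.0415 and 0.0194).

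WT6 and WT10 differed from each other in slope for 9 genes. The slope was more negative in WT6 cells for 8 (7.09% of all genes): BRCA2, XRCC2, FANCM, MRE11A, ATR, TOPBP1, ATM and FANCD2, with differences from -0.326 to -0.152. It was more positive for MUS81 (7.28% of all genes), by 0.12 ± 0.036. None of the 9 differences passed the test without the WT6 libraries at 5 and 25 ng/ml (0.0475% of all genes), where 1 gene of the 36 had an unadjusted p under 0.05. The count was also 0 without the WT6 library at 25 ng/ml (0.577% of all genes, with 4 repair genes more negative and 1 more positive at an unadjusted p under 0.05) or the untreated WT10 library (0.467%, with 7 and 1 at an unadjusted p under 0.05). It was 4 without WT6 cells at 1 ng/ml (6.03%), 5 without WT10 cells at 1 ng/ml (6.84%), 15 without WT10 cells at 25 ng/ml (15.6%) and 14 with the clones matched by dose (19.4%).

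Before any doxycycline the clones already differed in the fitted levels of many of these genes, as they did for many of all genes. In either direction 36.1% of the 36 differed between WT10 and MUT3 cells (28.2% of all genes). Between WT6 and WT10 cells 61.1% differed, near the 59.6% of all genes. At dose 0 the fitted level was higher in WT10 than in MUT3 cells for 11 of 36 genes (14.3% of all genes) and lower for 2 (13.9% of all genes). The 11 were RAD50, FANCI, BRCA2, BLM, FANCA, FANCD2, BRCA1, FANCC, NBN, FANCG and RAD51D. RAD50, the arm of the end-binding complex, was 703 in untreated WT10 and 335 in untreated MUT3 cells, with a fitted log2 difference of 1.16 ± 0.13 (adjusted p = 1.44e-05). The fitted levels of FANCI and BRCA2 differed by 1.05 ± 0.11 and 0.97 ± 0.23 (adjusted p = 8.35e-06 and 0.00564). A fitted level is where the straight line through all 5 doses meets dose 0, so it can depart from the untreated library. BRCA2 stood at 686 in untreated WT10 and 424 in untreated MUT3 cells, beside a fitted ratio of 1.96. FANCF and CHEK1 were lower in WT10 cells, by -0.96 ± 0.11 and -0.52 ± 0.11 (adjusted p = 2.73e-05 and 0.00237). Over all doses, 7 genes were higher in every WT10 than in every MUT3 library (16.6% of all genes) and 7 were lower (20.4% of all genes). The test compares these 2 clones and not wild type with mutant cells in general.

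The level was higher in WT6 than in WT10 cells for 16 genes (30.8% of all genes) and lower for 6 (28.8% of all genes). The largest of the 6 was RAD54L, at 625 in untreated WT6 and 1492 in untreated WT10 cells, a fitted log2 difference of -1.29 ± 0.092 (adjusted p = 1.41e-08). FANCE was lower too, by -0.89 ± 0.076 (adjusted p = 1.03e-07), with FANCI, NBN, RAD54B and FANCC. RAD50 again had the largest positive difference, 1.11 ± 0.12 (adjusted p = 7.9e-07), so its untreated level was in the order WT6, WT10, MUT3. Without the untreated WT10 library the clones differed for 14 genes in place of 22, where 49.8% of all genes differed in place of 59.6%. Per kilobase of canonical transcript, the untreated level in WT10 cells was highest for UBE2T at 1370 and FANCE at 1060 normalized counts per kilobase. It was lowest for RAD51D at 22.6 and BARD1 at 30.2. Where cells use a shorter transcript than the canonical one these values are too low, and where they use a longer one too high.

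**Figure D4:**
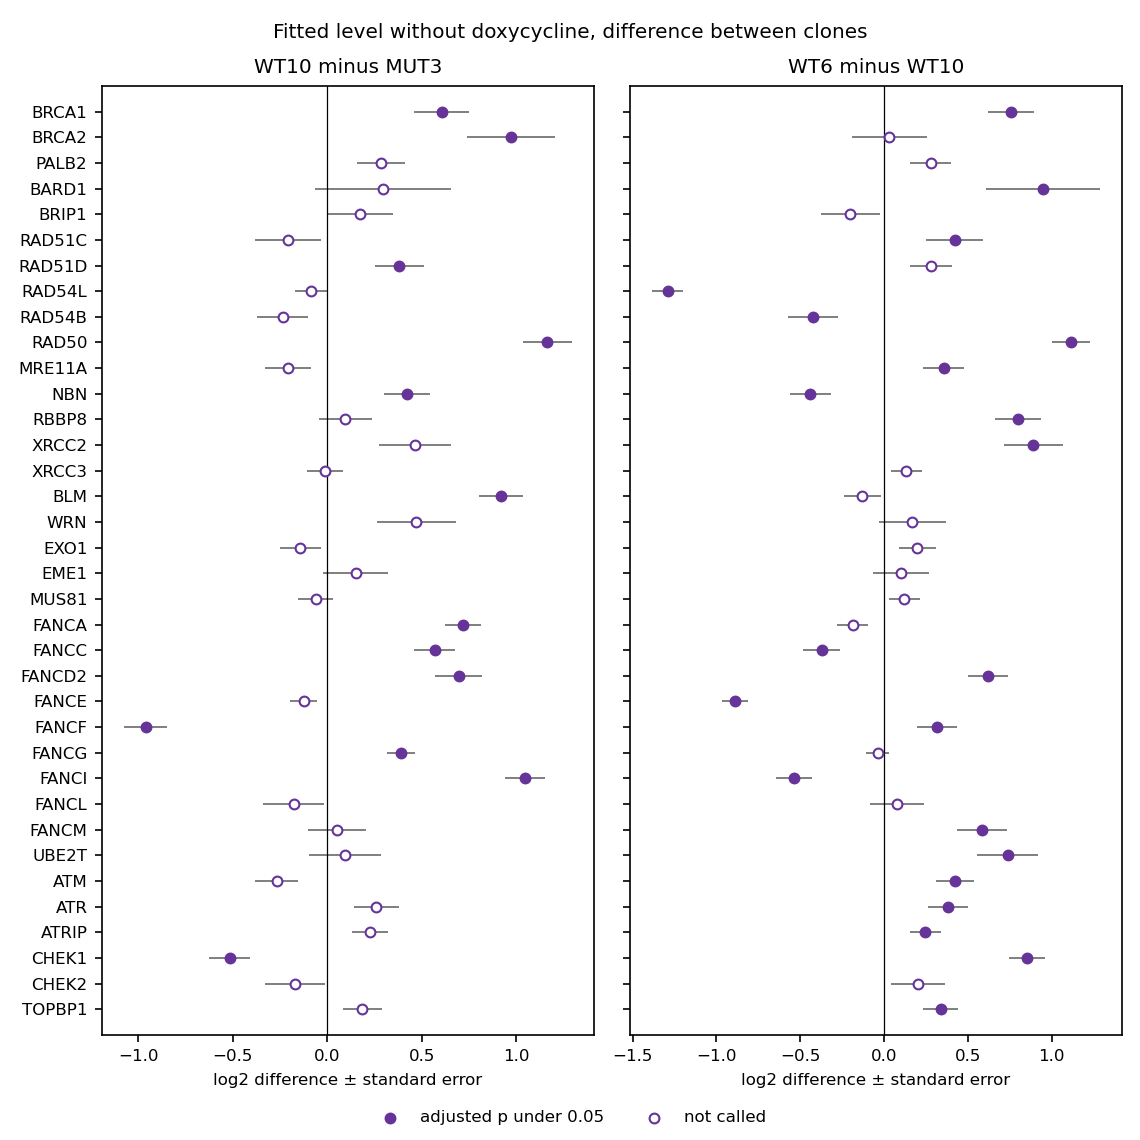
Fitted log2 difference in level without doxycycline, with its standard error, between WT10 and MUT3 cells (left) and between WT6 and WT10 cells (right) for each repair gene. Filled points have an adjusted p under 0.05. RAD50 is far to the right in both panels, FANCF is lowest on the left and RAD54L on the right.

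Genes of the cell cycle fell with dose in both wild type clones as well, but on the values as deposited the medians of the lists did not drop at the same doses in WT6 cells. Of 40 genes of DNA replication and the G1/S transition 30 fell in WT6 and 17 in WT10 cells, and of 30 genes of G2/M and mitosis 27 fell in WT6 and 22 in WT10 cells, where 28.3% and 9.83% of all genes fell. None of either list was called in MUT3 cells, where 1 gene of the G1/S list had an unadjusted p under 0.05. In WT6 cells at 2.5 ng/ml the median log2 change from untreated was already -0.385 for the G2/M list, with 29 of 30 genes below untreated, beside -0.144 for the G1/S list and -0.084 for the repair genes, of which 24 of 36 were below untreated. At 5 ng/ml it was -0.351 for the G2/M list, -0.165 for the G1/S list and -0.374 for the repair genes. With length and GC trends removed it was -0.378, -0.155 and -0.122 at 2.5 ng/ml and -0.609, -0.328 and -0.23 at 5 ng/ml. At 25 ng/ml the median log2 change from untreated was -0.571 for the G1/S list and -1.072 for the G2/M list in WT6 cells, beside -0.708 for the repair genes. In WT10 cells it was -0.271 and -0.597, beside -0.285, and in MUT3 cells -0.006 and 0.090, beside -0.039. Over the 15 libraries the mean deviation of the repair genes from their clone's mean correlated with that of the G1/S list at r = 0.98 and of the G2/M list at r = 0.96. This is a description: the points share libraries, scaling and the 3 dose series. The G1/S genes of steepest WT10 slope, E2F2, POLD1, LIG1 and TK1, had slopes between -0.192 and -0.146 there, and the G2/M genes CENPE, CENPF, KIF20A and MKI67 had slopes between -0.211 and -0.186. The part of a changed number of dividing cells in the fall of the repair genes was not tested, and in bulk RNA fewer cells in S and G2 phase and less of each mRNA per cell cannot be told apart.

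**Figure D5:**
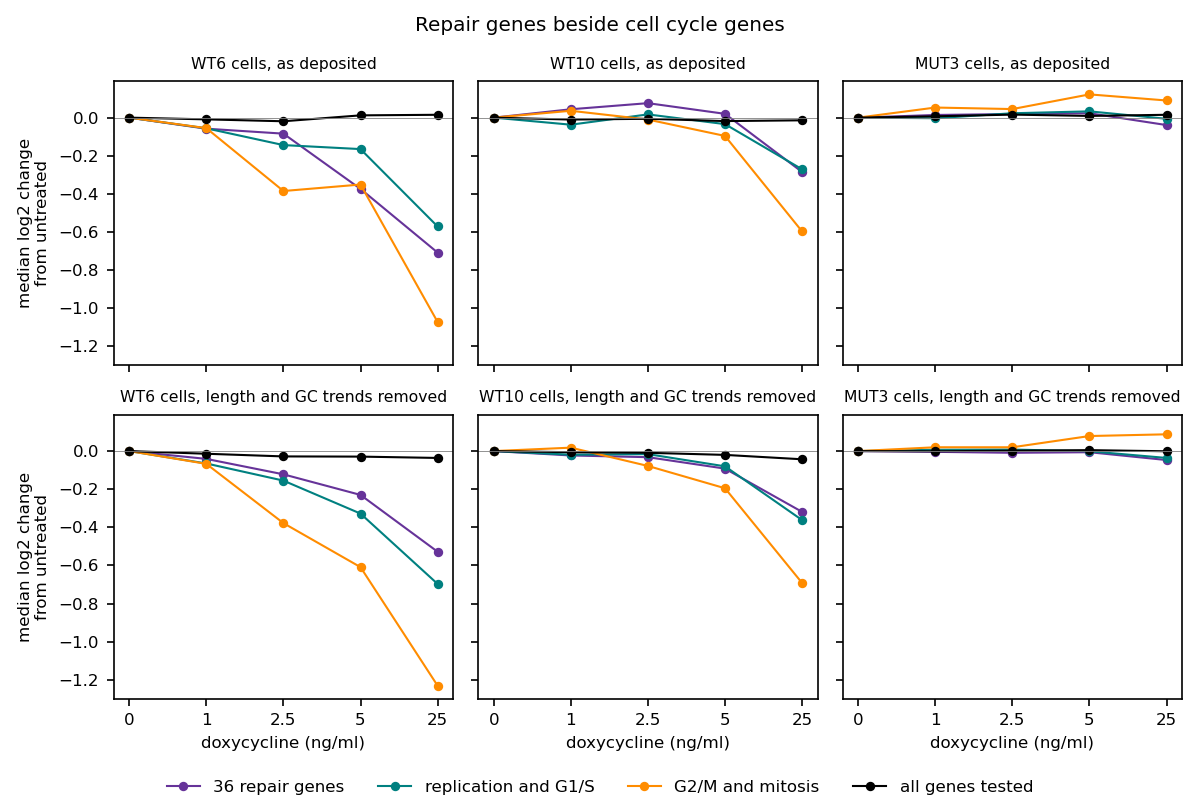
Median log2 change from the untreated library of each clone against doxycycline dose (ng/ml) for the 36 repair genes, the replication and G1/S list, the G2/M list and all genes tested, as deposited (top) and with length and GC trends removed (bottom). In WT6 and WT10 cells the 3 lists are lowest at 25 ng/ml, the G2/M list by most, while in MUT3 cells no median leaves the range from -0.047 to 0.122.

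Other DNA repair genes were called at shares below, near and above those of all genes, by list and clone. Of 47 tested genes of recombination and crosslink repair outside the 36, 19 fell and 7 rose in WT6 cells and 6 fell and 0 rose in WT10 cells, with median slopes of -0.040 and -0.014. The share called in either direction was 55.3% in WT6 cells, beside 57.5% of all genes, and 12.8% in WT10 cells, beside 20% of all genes, and the share that fell was 40.4% and 12.8%, beside 28.3% and 9.83%. H2AFX, whose product is the histone marked at breaks, had the steepest WT10 slope of them, -0.197 ± 0.032 (adjusted p = 0.000793), and RPA1, of the complex that coats single-stranded DNA, had -0.101 ± 0.024 (adjusted p = 0.00835). Of 14 genes of end joining 6 fell (42.9%) and 2 rose in WT6 and 4 fell (28.6%) in WT10 cells, among them LIG3, PARP1 and PRKDC with WT10 slopes of -0.192, -0.182 and -0.129 (adjusted p = 0.00857, 0.00106 and 0.0225). Of 7 genes of mismatch repair 6 fell (85.7%) in WT6 cells and 0 were called in WT10 cells, where 0 had an unadjusted p under 0.05. None of the 3 lists had a gene called in MUT3 cells, with 0 at an unadjusted p under 0.05.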

How the data were processed

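Total RNA of each clone and dose was selected for polyA, made into TruSeq libraries and read in pairs on an Illumina sequencer. The authors used STAR to align the reads to hg19 (GRCh37), HTSeq 0.5.4 at default settings to count them and DESeq to normalize the counts. The annotation is not given in the sources used here, and the strand setting is given only as the default of HTSeq. The deposited values are thus a signal per gene, read counts divided by a size factor for each library, called normalized counts here. All of them were whole multiples of 1 step per library, within 0.01 of a read, so the reads were recovered for the count tests. Tallies that name no gene were left out: reads on no feature made up 56.5 to 59.6% and ambiguous reads 0.53 to 0.62% of each library's reads. There were 0 columns without a sample.

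Values were transformed as log2(value + 1), and slopes and log2 changes are on that scale. Ratios of 1 library to another are of the normalized counts without the added 1. Genes with a mean of at least 10 in each clone were fitted with limma 3.58.1 and vooma weights (R 4.3.3), with a separate intercept and dose slope per clone (dose as log2(dose + 1)) over all 15 libraries, 9 residual degrees of freedom and Benjamini-Hochberg adjustment over all 12644 genes. There was 1 library per clone and dose, so errors measure the departure of libraries from straight lines, not the spread between replicate cultures. Each gene had 1 residual variance for all 3 clones, so the error of a slope in 1 clone also holds departures in the other clones. Alternatives used edgeR 4.0.16 and DESeq2 1.42.0 on recovered reads, TMM scaling, no weights, a pseudocount of 5, a minimum mean of 1, log2 RBM47 in place of dose, each clone alone, 1 library or the 25 ng/ml dose left out, dose as a block across clones, and splines with 4 degrees of freedom on transcript length and GC content removed from each library's deviation from its clone's mean. Fits were tested on simulated data with known slopes. Lengths and overlaps came from GENCODE v44 lifted to hg19, found for 36 repair genes and 91.8% of all genes in the table, MRE11A through its current symbol MRE11. The floor of 3 reads covers counting error only.

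The repair genes and the other lists were chosen with earlier results of these data known. Every repair gene was named. Values in every library are printed for genes called in the same direction in WT6 and WT10 cells (at most 10), for those called in WT10 against MUT3 cells and for BRCA1, BRCA2, FANCA, FANCG and ATM, and values of others where a result turned on them. At most 4 genes of each other list were named, those of steepest WT10 slope.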

Additional observations from a re-analysis of the deposited data

Results flagged for a closer look

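A difference of slopes between clones that passed the test (limma, adjusted p under 0.05 over all genes tested) is listed here with its values. RAD54L had a slope lower by -0.152 in the WT10 than in the MUT3 clone. It was 1 of 36 repair genes to do so, a share near the 2.97% of all genes tested, and the call was lost without the library of WT10 cells at 25 ng/ml or of MUT3 cells at 0 or 25 ng/ml and with log2 RBM47 in place of dose (adjusted p from 0.0914 to 0.457). The test compares 2 clones. The slope in WT6 minus that in WT10 cells was -0.326 for BRCA2, -0.319 for XRCC2, -0.22 for FANCM, -0.206 for MRE11A, -0.189 for ATR, -0.171 for TOPBP1, -0.169 for ATM and -0.152 for FANCD2, and 0.125 for MUS81. The 8 negative differences belong to genes with transcripts longer than the 3301 base median of all genes tested, from 4771 bases for XRCC2 to 12915 bases for ATM, and MUS81 has 2364 bases. Of all 36 repair genes, 23 were longer than that median. With length and GC trends removed, the WT6 and WT10 slopes differed with an adjusted p of 0.0487 for BRCA2, 0.0151 for XRCC2, 0.0262 for MRE11A and 0.0165 for TOPBP1, and of 0.0553 for FANCM, 0.0786 for ATR, 0.26 for ATM, 0.102 for FANCD2 and 0.109 for MUS81.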

How the results depend on the processing

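The counts of repair genes falling in WT6 (27) and WT10 (11) cells came within 1.5 times of these without weights, with a pseudocount of 5, a minimum mean of 1, TMM scaling, edgeR and DESeq2. With log2 RBM47 in place of dose limma called 0 falling in WT6 cells (14 at an unadjusted p under 0.05) and 0 in WT10 cells (7 at an unadjusted p under 0.05), 0 rising in WT6 cells and 0 in either comparison of slopes, and the median slopes per log2 of RBM47 were -0.089 and -0.028. Length and GC trends removed gave 18 falling in WT10 cells (20.6% of all genes) and a median WT6 slope of -0.111. It gave 8 lower in WT10 than in MUT3 cells in place of 1 (10.9% of all genes in place of 2.97%). Between WT6 and WT10 cells 5 slopes differed in place of 9 (15.1% of all genes in place of 14.4%). Between WT10 and MUT3 cells 21 levels differed in place of 13 (42.6% of all genes in place of 28.2%). DESeq2 gave 3 and 14 for the comparisons of slopes. Each clone fitted alone with limma gave 21 falling (15.5% of all genes) and 0 rising (15.7%) in WT6 cells. ATRIP and FANCG lost their WT6 calls there (adjusted p = 0.0961 and 0.0656). With edgeR BRIP1 lost its WT10 call (adjusted p = 0.0512). Without 25 ng/ml, 1 rose in WT6 cells (19.1% of all genes) and 0 fell in WT10 cells (0.0237% of all genes). There 0 differed in slope between WT10 and MUT3 cells (0% of all genes) or between WT6 and WT10 cells (0.0554%), and the median WT10 slope was 0.017. Without WT6 cells at 5 and 25 ng/ml, an alternative chosen after seeing the data, 0 fell and 0 rose in WT6 cells (0.411% and 1.03% of all genes). There 10 were lower in WT10 than in MUT3 cells (13.5% of all genes) and 0 differed between WT6 and WT10 cells (0.0475%). Levels differed between WT10 and MUT3 cells for 20 (46.7% of all genes), and the median WT6 slope was -0.05.

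Leaving out 1 library at a time gave 16 to 27 falling and 1 to 3 rising in WT6 cells, 0 to 11 falling in WT10 cells, 0 to 8 lower in WT10 than in MUT3 cells, 0 to 15 differing between WT6 and WT10 cells, 14 to 24 differing in level between them, and median WT10 slopes of -0.085 to 0.017. Of 1014 slopes of the 13 genes printed by library, 895 kept direction and call, 68 lost and 34 gained a call, and 17 changed sign. These were, without 25 ng/ml and without WT10 cells at 25 ng/ml, the WT10 slopes of BRIP1 (0.02 in both), FANCI (0.001 in both), BRCA1 (0.04 in both) and BRCA2 (0.096 in both) and the differences from MUT3 cells of BRIP1 (0.008 and 0.034), BRCA1 (0.008 and 0.036) and BRCA2 (0.019 and 0.077); without WT6 cells at 5 and 25 ng/ml, the WT6 slopes of BRCA1 (0.013) and ATM (0.015); and without untreated WT10 cells, the WT10 slope of ATM (-0.007). Over all fits without 1 library the WT10 slopes ran from -0.243 to 0.02 for BRIP1, -0.16 to 0.001 for FANCI, -0.076 to 0.04 for BRCA1, -0.162 to 0.096 for BRCA2 and -0.007 to 0.023 for ATM, and the differences from MUT3 cells from -0.23 to 0.034 for BRIP1, -0.08 to 0.036 for BRCA1 and -0.181 to 0.077 for BRCA2. The cause was not tested, except that fewer libraries also leave fewer residual degrees of freedom. Level differences have no counterpart with RBM47 in place of dose. No paired analysis was possible because the labels give no replicate numbers within a clone and dose, which had 1 library each. With dose as a block across the 3 clones, chosen after seeing the data, 5 genes had a lower slope in WT10 than in MUT3 cells in place of 1, 14 differed in slope between WT6 and WT10 cells in place of 9, and 13 and 22 differed in level, as before.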
